A study of Mus musculus with 4 samples.

Results

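The 10 genes described here encode heat shock chaperones: Hspa1a, Hspa1b, Hsph1, Dnajb1, Dnaja1, Hsp90aa1, Hsp90ab1, Hspa8, Hspd1 and Hspe1. They are 10 of the 32265 genes listed in each of 4 single-cell libraries, and a UMI was found for all 10 in every library. The set was chosen by name, with the higher levels of Hspa1b, Hspa1a, Hsph1 and Dnajb1 in CML untreated than in WT untreated already known, so their differences between libraries are given as a description. Each library holds LSK cells sorted from the bone marrow of C57BL/6 mice, the lineage-negative, Sca1-positive and Kit-positive fraction that contains the blood stem and early progenitor cells, and profiled with inDrop, which barcodes the transcripts of single cells in droplets. The groups were mice with chronic myeloid leukaemia (CML) given imatinib, untreated CML mice, wild-type (WT) mice given imatinib and untreated WT mice, with 1 library each. Imatinib, an inhibitor of the BCR-ABL kinase, was dosed orally by gavage (400 mg/kg, on alternate days), for 30 days in one label and 4 weeks in another. The transgene of the CML mice, its promoter and the number of mice pooled are not given in the sources used here.

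Heat shock chaperones hold unfolded proteins and help them fold. HSP70 proteins bind exposed stretches of a client, HSP40 co-chaperones of the DNAJ family deliver clients and start the HSP70 cycle, HSP110 proteins exchange its nucleotide, and HSP90 completes the folding of kinases and receptors, among them BCR-ABL. The transcription factor HSF1 binds heat shock elements, repeats of GAA in alternating orientation, and induces some of these genes strongly under heat or other protein stress, whereas Hspa8 and Hsp90ab1 are made at a high level without stress. Hspd1 and Hspe1 encode HSP60 and HSP10, the chaperonin of the mitochondrial matrix, so these members are not cytosolic.

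The promoters are shown because the members that were higher together are known HSF1 targets. RefSeq windows (GRCm38.p6) were at hand for 7 of the 10 genes, and the 250 bases before the start were searched for the paired repeats GAANNTTC and TTCNNGAA, each its own reverse complement, printed in capitals. Where a gene had several windows, the one with most matches is given.
Hspa1b, chr17:34959239-34959488, minus strand: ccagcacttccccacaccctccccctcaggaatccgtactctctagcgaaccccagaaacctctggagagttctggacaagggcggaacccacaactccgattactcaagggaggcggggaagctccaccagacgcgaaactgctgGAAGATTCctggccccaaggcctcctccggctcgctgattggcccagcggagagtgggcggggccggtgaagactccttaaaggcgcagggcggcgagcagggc
Hspa1a, chr17:34972157-34972406, minus strand: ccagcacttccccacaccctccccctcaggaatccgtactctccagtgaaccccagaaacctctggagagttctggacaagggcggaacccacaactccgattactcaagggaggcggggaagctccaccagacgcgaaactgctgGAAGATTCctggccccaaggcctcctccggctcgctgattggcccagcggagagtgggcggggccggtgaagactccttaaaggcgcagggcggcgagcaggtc
Hsph1, chr5:149636337-149636586, minus strand: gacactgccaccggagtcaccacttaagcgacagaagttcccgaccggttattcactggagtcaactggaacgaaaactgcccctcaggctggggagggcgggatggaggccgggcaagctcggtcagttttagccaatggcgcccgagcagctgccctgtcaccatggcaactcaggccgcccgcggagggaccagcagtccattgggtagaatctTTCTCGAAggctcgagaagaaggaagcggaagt
Dnaja1, chr4:40722218-40722467, plus strand: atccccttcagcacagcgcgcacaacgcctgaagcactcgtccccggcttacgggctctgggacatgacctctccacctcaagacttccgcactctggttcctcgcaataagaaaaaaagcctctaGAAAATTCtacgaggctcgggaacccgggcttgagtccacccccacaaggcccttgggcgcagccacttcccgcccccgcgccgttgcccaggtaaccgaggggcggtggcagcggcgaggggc
Hspe1, chr1:55087898-55088147, plus strand: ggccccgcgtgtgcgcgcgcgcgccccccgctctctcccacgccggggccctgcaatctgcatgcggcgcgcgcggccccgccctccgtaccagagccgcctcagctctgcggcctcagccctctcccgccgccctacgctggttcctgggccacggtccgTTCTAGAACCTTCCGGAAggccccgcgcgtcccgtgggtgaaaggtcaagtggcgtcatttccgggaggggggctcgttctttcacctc
The Hspa1b and Hspa1a windows differ at 3 of 250 positions and carry the same GAAGATTC, whose first base lies at -104 from the start. In the Hspe1 window, 3 overlapping pairs form 1 unbroken run of repeats, which holds 2 three-unit matches (GAANNTTCNNGAA or TTCNNGAANNTTC). The start regions of Hspe1 and Hspd1, which are transcribed in opposite directions, overlap, and the run is also in 1 of the 2 Hspd1 windows. Window by window, a pair was found in 7 of the 12 windows of the 7 genes, beside 12.8% of all 32851 mouse windows, and a three-unit match in 2 of the 12, beside 0.466%. Neither of the Dnajb1 windows held these letters. The windows are not independent, since the 2 Hsph1 windows overlap and hold the same pair. Hspa1a and Hspa1b are near copies, and Hspe1 and Hspd1 share 1 run, so the counts of windows are a description only. Hspa1a (chromosome 17, 34969190 to 34972156) and Hspa1b (chromosome 17, 34956436 to 34959238) are adjacent copies, and 64.1% of the 30-base stretches of the annotated Hspa1a transcript also occur in Hspa1b. None of the stretches in the last 300 bases is shared (0%). No source used here says how reads that match both copies were assigned, so their sum is given beside each.

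The libraries differed in depth and make-up. The kept cells were 5139 in CML imatinib, 3032 in CML untreated, 4187 in WT imatinib and 3030 in WT untreated. Their median depth was 1198 UMIs per cell in CML imatinib, 5160.5 in CML untreated, 1486 in WT imatinib and 3637.5 in WT untreated. Kit, which the sort used, was at 136 to 176 CPM in the 4 libraries, and Ly6a, the Sca1 gene, at 51.05 CPM in CML imatinib, 95.8 CPM in CML untreated, 49.6 CPM in WT imatinib and 192 CPM in WT untreated. Cells of clusters named for granulocyte-monocyte markers made up most of both imatinib libraries and few cells of the untreated ones. The name of the largest of these clusters, cluster 0, is unsure, as given further on. The X-inactivation RNA Xist was at 94.97 CPM in CML imatinib and 2375 CPM in CML untreated, against 3.15 CPM in WT imatinib and 1.52 CPM in WT untreated, so sex markers cannot be told apart from the group in any comparison with the CML untreated library. Cell names are also shared: 1135 names occur in both WT libraries, and 80 to 340 in each other pair. Same-named cells of the WT libraries were no more alike than pairs of unlike names (median r -0.0035 over 1032 same-named pairs and 0.0019 over shifted pairs), and without all same-named cells the 4 inducible genes together had a log2 ratio of 2.85 for CML untreated over WT untreated, as with them.

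The inducible HSP70 genes carried the largest difference among the members. Levels are UMIs per 1000000 UMIs of the library (CPM), with exact Poisson 95% intervals that, like all intervals here, cover counting error only. Hspa1b was at 715 CPM (698 to 732) in CML imatinib, 3588 CPM (3563 to 3614) in CML untreated, 578 CPM (562 to 595) in WT imatinib and 323 CPM (313 to 333) in WT untreated. Hspa1a was at 299.8 CPM in CML imatinib, 1019 CPM in CML untreated, 279 CPM in WT imatinib and 142 CPM in WT untreated. Both copies were highest in CML untreated and lowest in WT untreated, with the imatinib libraries between. Their sum reached 1015 CPM in CML imatinib, 4607 CPM in CML untreated, 857 CPM in WT imatinib and 465 CPM in WT untreated.

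Dnajb1, the HSP40 that is induced with HSP70, and Hsph1, an HSP110, had another order. Dnajb1 was at 128 CPM in CML imatinib, 343 CPM in CML untreated, 83.2 CPM in WT imatinib and 152 CPM in WT untreated. Hsph1 was at 154 CPM in CML imatinib, 457 CPM in CML untreated, 79.4 CPM in WT imatinib and 134 CPM in WT untreated. CML untreated was again highest, but here WT imatinib was lowest. Dnaja1, an HSP40 of the cytosol, was at 222 CPM in CML imatinib, 527 CPM in CML untreated, 232 CPM in WT imatinib and 269 CPM in WT untreated, so only CML untreated stood apart.

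**Figure D1:**
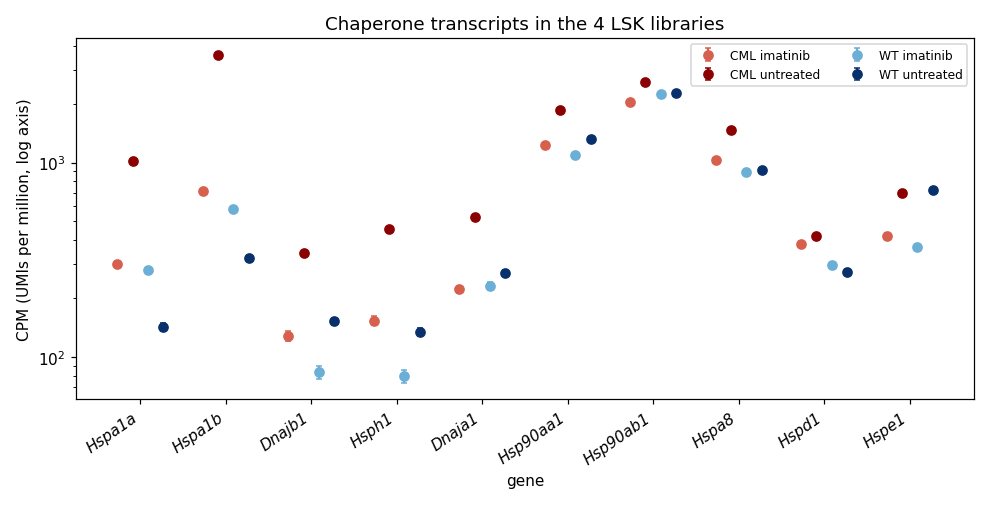
CPM of each of the 10 genes (log axis) in the CML imatinib, CML untreated, WT imatinib and WT untreated libraries, with exact Poisson 95% intervals. Hspa1b in CML untreated, at 3588 CPM, lies above every other point, and Hspe1 is the gene for which WT untreated, at 718 CPM, is highest.

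The abundant chaperones varied less. Hsp90ab1, the constitutive HSP90, was at 2059 CPM in CML imatinib, 2587 CPM in CML untreated, 2254 CPM in WT imatinib and 2271 CPM in WT untreated. Hsp90aa1, the HSP90 with an inducible promoter, was at 1229 CPM in CML imatinib, 1867 CPM in CML untreated, 1093 CPM in WT imatinib and 1327 CPM in WT untreated. Hspa8, the constitutive HSC70, was at 1029 CPM in CML imatinib, 1465 CPM in CML untreated, 893 CPM in WT imatinib and 913 CPM in WT untreated. All 3 were highest in CML untreated. The chaperonin subunits did not move together. Hspd1 was at 381 CPM in CML imatinib, 419 CPM in CML untreated, 296 CPM in WT imatinib and 272 CPM in WT untreated, higher in the CML libraries. Hspe1 was at 419 CPM in CML imatinib, 696 CPM in CML untreated, 366 CPM in WT imatinib and 718 CPM in WT untreated, higher in the untreated libraries.

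The 4 inducible genes were the members past 2-fold between the untreated libraries. In CML untreated over WT untreated, Hspa1b was 11.1-fold higher (log2 3.47, interval 3.43 to 3.52), Hspa1a 7.17-fold, Hsph1 3.41-fold and Dnajb1 2.26-fold. Of the 3824 genes with 50 CPM and 50 UMIs in whichever library was higher, 0.523% were higher and 0.392% lower by 2-fold or more. The members were chosen with this contrast known, so nothing is read from their 4 of 10. Dnaja1 lay just outside the threshold at 1.96-fold (1.89 to 2.03). The remaining members, which the threshold does not hold, were spread from Hspa8 at a log2 ratio of 0.68 and Hspd1 at 0.62 through Hsp90aa1 at 0.49 and Hsp90ab1 at 0.19 to Hspe1 at -0.04, beside a median of 0.03 over all genes with at least 10 CPM.

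In CML imatinib over CML untreated, 5 of the 10 members were at least 2-fold lower: Hspa1b 5.02-fold, Hspa1a 3.40-fold, Hsph1 2.97-fold, Dnajb1 2.68-fold and Dnaja1 2.37-fold. Among the 4265 genes tested there, 9.40% were higher and 7.95% lower by 2-fold or more, so this comparison moved far more genes than the untreated one. Hspa1a, Hspa1b, Hsph1 and Dnajb1 were chosen with their high level in CML untreated known. That library is compared here again, so nothing is read from the 5 of 10. The other 5 members were also lower, at log2 ratios between -0.14 (Hspd1) and -0.73 (Hspe1). In WT imatinib over WT untreated no member passed 2-fold, beside 7.58% of 4092 genes tested that were higher and 5.45% that were lower by that much. Here the inducible genes parted: Hspa1a was 1.96-fold and Hspa1b 1.79-fold higher, while Dnajb1 was 1.83-fold and Hsph1 1.69-fold lower. Hspe1 was 1.96-fold lower. By cluster names, both imatinib comparisons set mostly granulocyte-monocyte progenitor-like cells against mostly other progenitors, and values within clusters are given further on. The name of cluster 0, which holds much of both imatinib libraries, is unsure.

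The imatinib ratios in CML and in WT were set side by side, with no test since each group is 1 library. Hspa1b had a log2 ratio of -2.33 in CML and 0.84 in WT, and Hspa1a -1.77 in CML and 0.97 in WT. For the 4 inducible genes summed it was -2.06 in CML and 0.44 in WT. The gap between the CML and WT imatinib ratios equals that between the CML over WT ratios with and without imatinib. The inducible genes were chosen with the untreated one of these known, so nothing is read from their gap. Between CML imatinib and WT imatinib no member passed 2-fold, beside 2.32% of 3914 genes tested that were higher and 0.179% that were lower by that much. Hsph1 was nearest, at 1.93-fold higher (1.76 to 2.12), and Hspa1a and Hspa1b together were 1.18-fold higher (1.15 to 1.22).

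**Figure D2:**
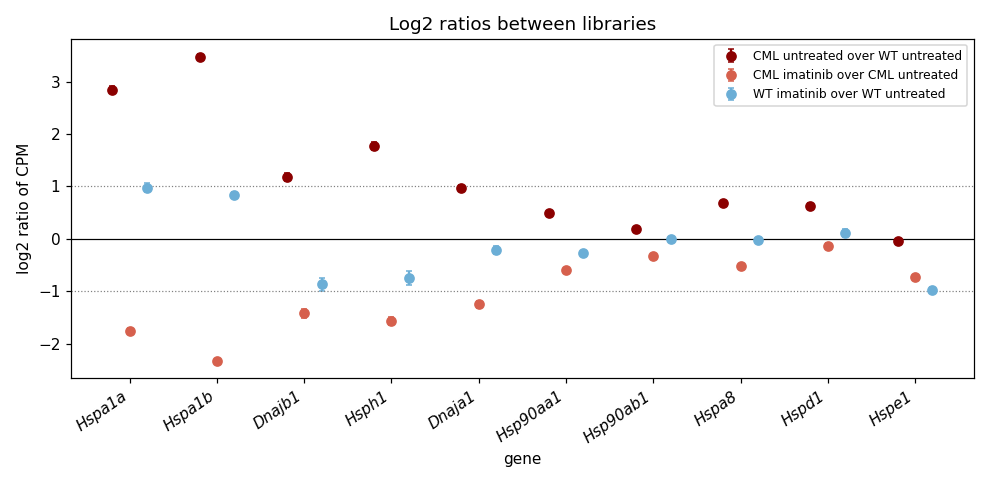
Log2 ratios of CPM for the 10 genes in CML untreated over WT untreated, CML imatinib over CML untreated and WT imatinib over WT untreated, with exact conditional binomial 95% intervals. Dotted lines mark 2-fold. Hspa1a and Hspa1b are above 0 in CML untreated over WT untreated and in WT imatinib over WT untreated, and below 0 in CML imatinib over CML untreated.

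Within clusters of like cells, the HSP70 difference between the untreated libraries was present in each cluster that could be compared. Cells were clustered without the chaperone, early response, sex-linked, ribosomal protein and mitochondrial genes, and 7 clusters held at least 30 cells of both untreated libraries. In CML untreated over WT untreated, the log2 ratios over these 7 clusters ran from 1.97 to 4.59 for Hspa1a, from 2.34 to 5.09 for Hspa1b, from 1.32 to 1.87 for Hsph1 and from 0.46 to 2.40 for Dnajb1, whose whole interval was above 0 in 6 of 7. Hspa8 was above 0 with its whole interval in 7 of 7, at log2 ratios of 0.41 to 0.76, whereas Hspe1 was in 1 of 7 and below 0 in 2.

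For Hspa1a and Hspa1b together, cluster 1, lymphoid-primed progenitor-like cells led by Flt3 and Satb1, was at 4503 CPM in 1822 CML untreated cells and 562 CPM in 1783 WT untreated cells. Cluster 3, left unnamed and with Apoe, Itga2b and Gata1 among its leading genes, was at 5869 CPM in 599 CML untreated cells and 187 CPM in 623 WT untreated cells, a log2 ratio of 4.97 that no other cluster reached. The granulocyte-monocyte progenitor-like clusters 0 and 2 had log2 ratios of 3.46 and 3.43. Cluster 0 was shallow, at a median of 1014 UMIs over its cells, and was led by Gm42418 before Mpo. At Leiden resolution 1.0 an unnamed cluster also led by Gm42418 held 172 CML untreated, 192 WT untreated, 1251 CML imatinib and 1086 WT imatinib cells. A granulocyte-monocyte progenitor-like one led by Gm42418, Mpo and Elane held 1341 CML imatinib and 393 WT imatinib cells. When the chaperone and early response genes were kept in, the cluster led by Gm42418, with 2481 CML imatinib and 1583 WT imatinib cells, was unnamed. The name of cluster 0 is therefore unsure, for untreated and imatinib cells. Mature cells that the sort should remove differed in the same direction. T cell-like cells were at 8023 CPM in 145 CML untreated cells and 416 CPM in 150 WT untreated cells. Plasma cell-like cells were at 1230 CPM in 41 CML untreated cells and 169 CPM in 93 WT untreated cells, and erythroid-like cells at 2031 CPM in 108 CML untreated cells and 423 CPM in 49 WT untreated cells. By these sums T cell-like cells were highest in CML untreated and lymphoid-primed progenitor-like cells in WT untreated. The T cell-like cells of CML untreated were uneven. In the thinned cells described further on, their mean of inducible UMIs lay well above their median, which equalled that of erythroid-like cells.

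**Figure D3:**
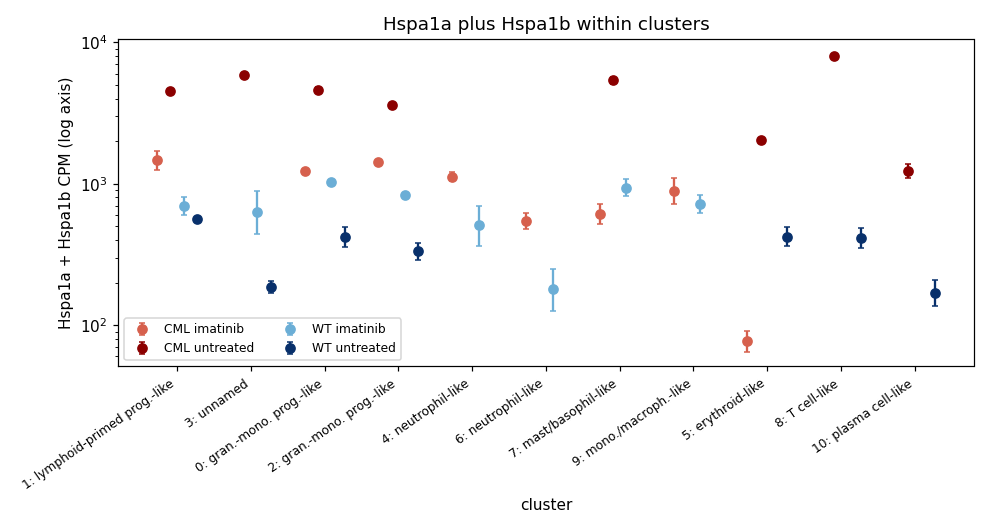
CPM of Hspa1a plus Hspa1b (log axis) by cluster in the CML imatinib, CML untreated, WT imatinib and WT untreated libraries, for sums of at least 30 cells, with exact Poisson 95% intervals. The CML untreated point is highest in each cluster in which that library has one, and the erythroid-like CML imatinib cells, at 77.3 CPM, are lowest.

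The imatinib comparisons of Hspa1a and Hspa1b kept their directions within clusters, whereas those of Dnajb1 and Hsph1 did so in part. In CML imatinib over CML untreated, 5 clusters could be compared, and log2 ratios ran from -4.85 to -1.45 for Hspa1b and from -2.65 to -1.46 for Hsph1. The sum of Hspa1a and Hspa1b in cluster 0 was 1233 CPM in 2523 CML imatinib cells and 4624 CPM in 203 CML untreated cells. Erythroid-like cells went furthest, with 77.3 CPM in 277 CML imatinib cells and 2031 CPM in 108 CML untreated cells. Dnajb1 went the other way in these cells alone among the 5 clusters, at 298 CPM in CML imatinib and 146 CPM in CML untreated. In WT imatinib over WT untreated, 4 clusters could be compared. Hspa1b was above 0 with its whole interval in 4 of 4, at log2 ratios of 0.29 to 1.91. Hspa1a was so in 2 of 4, at log2 ratios of 0.37 to 1.41. Dnajb1 was below 0 with its whole interval in 1 of 4 and Hsph1 in 2 of 4. At a finer clustering (Leiden resolution 1.0) the 4 inducible genes summed ran from -0.83 to 1.69 over 5 clusters in this comparison, with a median of -0.01, against 0.19 to 0.91 and a median of 0.73 here. In cluster 0 the sum of Hspa1a and Hspa1b was 1024 CPM in 1970 WT imatinib cells and 421 CPM in 220 WT untreated cells. Since the name of cluster 0 is unsure, both of its imatinib comparisons may set unlike cells side by side. Hspa1b in CML imatinib over WT imatinib was above 0 with its whole interval in 5 of 7 clusters and below 0 in 1, at log2 ratios of -0.52 to 1.35.

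Whether all cells or a subset carried the difference was asked after each cell was thinned to 1000 UMIs, which left no cell of either untreated library out. At least 1 UMI of the 4 inducible genes was found in 81.1% of CML untreated cells (exact binomial interval 79.7 to 82.5) and 33.9% of WT untreated cells (32.2 to 35.6). Hspa1a or Hspa1b was found in 70.6% of CML untreated cells and 14.6% of WT untreated cells. The median cell held 3 inducible UMIs in CML untreated and 0 in WT untreated, and 20.2% of CML untreated cells against 0.561% of WT untreated cells held at least 10. No cell type among these cells could be taken to lack the genes, so the part of free RNA in the droplets was not tested. The lowest untreated cluster mean, in plasma cell-like cells, was 1.56 inducible UMIs in CML untreated and 0.495 in WT untreated.

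The difference was broad and uneven. When cells of each library were ranked by inducible UMIs and divided into 10 equal bands, CML untreated was above WT untreated in each band but the lowest, where both averaged 0. The highest band averaged 24.0 UMIs in CML untreated and 4.27 in WT untreated and held 38.0% of the difference, with the rest spread over the bands below. At the lower end, 18.9% of CML untreated cells held none, where a Poisson spread around their mean of 5.90 would leave 0.274%. The variance was 10.4 times the mean in CML untreated and 4.48 times in WT untreated. Spread differed between cell types, and the T cell-like cells of CML untreated had a variance 28.2 times the mean, a mean of 10.5 and a median of 3, against 2.64 times and a median of 3 in erythroid-like cells.

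**Figure D4:**
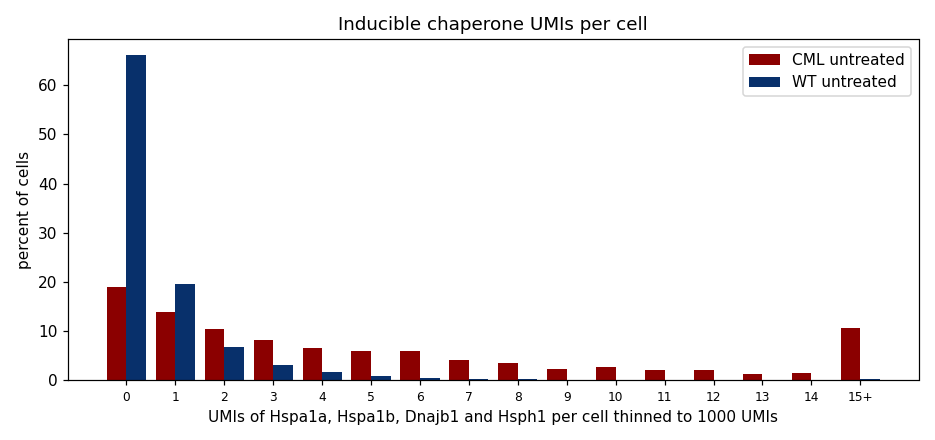
Percent of cells (vertical axis) by number of UMIs of Hspa1a, Hspa1b, Dnajb1 and Hsph1 in each cell thinned to 1000 UMIs (horizontal axis, last bin 15 and above), for CML untreated and WT untreated. Cells with none are 18.9% of CML untreated and 66.1% of WT untreated, and the last bin holds 10.6% of CML untreated and 0.198% of WT untreated.

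At 500 UMIs per cell, which all 4 libraries reach, at least 1 inducible UMI was found in 34.6% of CML imatinib, 69.8% of CML untreated, 32.3% of WT imatinib and 21.8% of WT untreated cells. Those with at least 5 were 1.87% of CML imatinib, 23.0% of CML untreated, 0.955% of WT imatinib and 0.759% of WT untreated cells. WT imatinib was thus above WT untreated in the share with at least 1 UMI, while the shares with at least 5 overlapped within their exact binomial intervals. Over bands of cell depth the level fell in CML untreated, and in WT untreated it did not follow depth in order. Over cells thinned to 1000 UMIs, Spearman's rho between Hspa1a plus Hspa1b and depth before thinning was weak. It was -0.05 in CML untreated and 0.10 in WT untreated. For cells of 1000 to 2000 UMIs, Hspa1a plus Hspa1b was at 5948 CPM in 235 CML untreated cells and 458 CPM in 611 WT untreated cells, 12.98-fold apart. For cells of 2000 to 4000 UMIs it was at 5797 CPM in 953 CML untreated cells and 296 CPM in 1080 WT untreated cells, 19.6-fold apart. For cells of 4000 to 8000 UMIs it was at 5017 CPM in 913 CML untreated cells and 453 CPM in 1034 WT untreated cells, 11.1-fold apart. For cells of 8000 or more UMIs it was at 4156 CPM in 931 CML untreated cells and 660.3 CPM in 305 WT untreated cells, 6.29-fold apart. The direction was thus the same in each of these bands, while the size of the ratio was not.

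Within a library, the inducible genes were only loosely linked from cell to cell. Over the 3032 thinned CML untreated cells, Spearman's rho was 0.46 between Hspa1a and Hspa1b, 0.22 between their sum and Dnajb1, and 0.02 between their sum and Hsph1, as a description of sparse counts from 1 library. Over the 3030 WT untreated cells, rho was 0.35 between Hspa1a and Hspa1b, -0.02 between their sum and Dnajb1, and 0.08 between their sum and Hsph1. Dnajb1 was found in 29.6% of the CML untreated cells with an Hspa1a or Hspa1b UMI and in 16.4% of those without, against 14.2% of the WT untreated cells with one and 15.7% of those without.

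Among the other chaperone and stress lists, no tested gene was past 2-fold in CML untreated over WT untreated. Over all tested genes 0.523% were higher and 0.392% lower by that much. Lists of this size would hold few or none at such shares, so nothing is read from the count. The tested genes were 18 HSP90 and HSP70 co-chaperones (median log2 ratio 0.23 over 24 genes with 10 CPM), 9 other HSP40, HSP70 and HSP110 genes (0.14), 11 genes of the TRiC chaperonin and prefoldin (-0.04), 14 chaperones of the endoplasmic reticulum (0.39), 6 mitochondrial ones (0.09) and 8 ubiquitin and stress genes (0.26), beside 0.03 over all genes. Dnajb4, an HSP40 of the cytosol, was nearest, with 60.1 CPM in CML untreated and 30.2 CPM in WT untreated. The co-chaperone Cacybp was at 362 CPM in CML untreated and 244 CPM in WT untreated, and Fkbp4 at 502 CPM in CML untreated and 374 CPM in WT untreated. The endoplasmic reticulum list had the highest of these medians. Hspa5, its HSP70, was at 1749 CPM in CML untreated and 1014 CPM in WT untreated (log2 ratio 0.79), Sdf2l1 at 375 CPM in CML untreated and 224 CPM in WT untreated (0.74), and Manf at 837 CPM in CML untreated and 510 CPM in WT untreated (0.72). These ratios were above that of Hspd1, which lay higher than 98.1% of the tested genes. No small heat shock protein reached the 50 CPM needed to be tested, and of these Hspb1, Cryab, Hspb6 and Hspb8 are named after their values were seen. Hspb1 was at 19.4 CPM in CML untreated and 3.80 CPM in WT untreated, 5.10-fold higher (log2 2.35, interval 1.93 to 2.81), and Cryab at 3.38 CPM in CML untreated and 1.06 CPM in WT untreated. Hspb6 went the other way, at 6.77 CPM in CML untreated and 9.81 CPM in WT untreated (log2 -0.54, interval -0.89 to -0.18). Hspb11 was at 21.4 CPM in CML untreated and 21.8 CPM in WT untreated. Hspb8 was hardly found, at 0.188 CPM in CML untreated and 0.152 CPM in WT untreated. Hsf1 itself was at 41.2 CPM in CML untreated and 42.3 CPM in WT untreated.

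Immediate early genes are switched on in many cells within minutes of a stimulus or of handling. Their list was written with earlier results of these data known, so its counts are given as a description. In CML untreated over WT untreated 7 of 20 tested were at least 2-fold higher and none lower, beside 0.523% and 0.392% of all tested genes, with a median log2 ratio of 0.79 beside 0.03 over all genes. The list was not uniform, and 5 of the 20 were lower with their whole interval below 0: Nfkbia (-0.37), Nr4a1 (-0.34), Ier5 (-0.32), Ier3 (-0.25) and Dusp2 (-0.23), named after their values were seen. Fosb was at 516 CPM in CML untreated and 168 CPM in WT untreated, Dusp1 at 579 CPM in CML untreated and 231 CPM in WT untreated, and Klf2 at 175 CPM in CML untreated and 70.2 CPM in WT untreated. Their sum was above 0 in 7 of 7 clusters, at log2 ratios of 0.46 to 1.01. For CML imatinib over CML untreated 18 of 20 were at least 2-fold lower, beside 7.95% of all tested genes. For WT imatinib over WT untreated 16 of 18 were, beside 5.45%, whereas Hspa1a and Hspa1b were higher there. Over CML untreated cells, Spearman's rho between Hspa1a plus Hspa1b and the summed early genes was 0.30, and over WT untreated cells -0.04. Their part in the chaperone difference was not tested.

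The pattern of Hspa1a plus Hspa1b over 29 sums of 1 library and cluster was most like that of Dnaja1 (Pearson r 0.73 on log2(CPM + 10)), followed by Terf1 (0.70), Xist (0.67), Ythdc1 (0.66), Atp6v1d (0.65), Ddx5 (0.64), Krit1 (0.62), Zfp326 (0.62), Chka (0.61) and Eif4a2 (0.61). The sums share libraries, so r is a description, and Xist stands among them as a marker of the CML untreated library. Of the members, Hspa8 ranked 66 of 4420 genes (0.53), Dnajb1 95 (0.49) and Hsph1 228 (0.43), while Hspd1 ranked 1647 (0.18).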

How the data were processed

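Single-cell RNA was measured in 4 inDrop libraries of sorted mouse LSK cells, 1 per group, grouped by the titles and treatment labels. The values the authors deposited are a normalized signal per gene and cell, each cell summing to about 2839, and Partek 8.0, Bowtie 1.1.1 and the build GRCm38 (mm10) are named in the submitters' processing notes. Dividing by each cell's smallest value gave whole UMIs for 100% of entries within 0.02. Headers hold 1 name more than there are value columns, so cells were taken by position. Cells with at least 500 UMIs, 200 genes and at most 20% mitochondrial UMIs were kept, which left 8245224 to 21283108 UMIs per library. Sums were scaled to CPM and compared by log2 ratio with exact conditional binomial intervals. With 1 library per group there is no test and no replicate check. For 2-fold calls and list medians, a library level below 3 counts was set to 3 counts. The ratios given for single genes had no such floor. Clusters came from scanpy 1.11.5 (2000 variable genes, 30 components, 15 neighbours, Leiden resolution 0.5), and names need 3 fixed markers among 25 leading genes. Scrublet called 0 doublets in every library and so did not work, and the 5% highest scores were left out instead as an alternative. The calls were tested on simulated data. Named genes are the members, up to 4 genes per list with at least 20 CPM and the largest ratio, and the 10 most alike genes. The members and lists were chosen with earlier results of these data known. TMM factors came from edgeR 4.0.16 on the recovered counts. Promoters are RefSeq windows, and positions GENCODE vM21.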

Additional observations from a re-analysis of the deposited data

Results flagged for a closer look

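Hspa1a, Hspa1b and Hspd1 stood out because imatinib went with a lower level in CML and a higher one in WT, with both counting intervals away from 0. The difference of the log2 ratios, CML minus WT, was -2.74 for Hspa1a, -3.17 for Hspa1b and -0.26 for Hspd1. It was not tested, since each group is 1 library. The same difference is the log2 ratio of CML imatinib over WT imatinib minus that of CML untreated over WT untreated. These were 0.10 and 2.84 for Hspa1a, and 0.31 and 3.47 for Hspa1b. Both genes were chosen with the untreated contrast known, so nothing is read from the difference for them. For Hspd1 the WT ratio was 0.12 as reported and -0.13 under TMM scaling, so its opposite directions depend on the scaling.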

How the results depend on the processing

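No paired analysis was possible because each group is 1 library. Log2 ratios of the members and of Hspa1a plus Hspa1b were recomputed under 9 alternatives, 396 in all. Of these, 382 kept their sign, and the 99 that belong to a 2-fold difference all stayed past 2-fold in the same direction. Some could not change: every untreated cell has at least 1000 UMIs, and without the filter WT untreated goes only from 3030 to 3033 cells. The sum of Hspa1a and Hspa1b is also counted beside its parts. With TMM scaling the all-gene median shifted by more than 0.1, to log2 ratios of -0.14 (CML untreated over WT untreated), -0.34 (CML imatinib over CML untreated), -0.29 (WT imatinib over WT untreated) and -0.23 (CML imatinib over WT imatinib), from 0.03, 0.01, -0.03 and 0.02, and the share of 2-fold calls that are higher to 39.5%, 22.0%, 30.4% and 82.1%, from 57.1%, 54.2%, 58.2% and 92.9%. For the 4 inducible genes summed, the log2 ratio in CML untreated over WT untreated was 2.68 with TMM, 2.81 with a total without ribosomal, mitochondrial and haemoglobin genes, 3.07 as a mean of single-cell CPM and 3.03 with cells thinned to 500 UMIs. In CML imatinib over CML untreated it was -2.38, -2.03, -2.16 and -2.18 in that order, and -1.87 without mature-cell clusters. In WT imatinib over WT untreated it was 0.19 with TMM, 0.59 as a mean of single-cell CPM and 0.57 thinned, and in CML imatinib over WT imatinib 0.11 with TMM, 0.29 thinned and 0.53 without mature-cell clusters. The difference of the imatinib ratios, CML minus WT, was -2.57 with TMM, -2.75 as a mean of single-cell CPM, -2.75 thinned and -2.31 without mature-cell clusters. With TMM, Hspe1 also became 2-fold lower in CML imatinib over CML untreated (-1.05), where 716 genes were lower by that much, against 339 as reported. Members at least 2-fold apart in WT imatinib over WT untreated became 3 lower with TMM, 2 higher and 1 lower as a mean of single-cell CPM and when thinned, and 1 higher without same-named cells, an alternative chosen after seeing the data. Over all genes this comparison had 310 higher and 223 lower as reported, and 207 higher and 473 lower with TMM. Higher and lower genes were 335 and 239 as a mean of single-cell CPM, 339 and 262 thinned, and 323 and 234 without same-named cells. In CML imatinib over WT imatinib, 1 became higher with at least 1000 UMIs per cell and 1 without the highest Scrublet scores, Hsph1 in both. Genes at least 2-fold higher there were 108 and 102 in that order, against 91 as reported. Counts of genes at least 2-fold apart were 23 without mature-cell clusters and 55 at 20 CPM for CML untreated over WT untreated, 1317 at 20 CPM and 406 at 100 CPM for CML imatinib over CML untreated, 954 and 311 for WT imatinib over WT untreated, and 214 and 43 for CML imatinib over WT imatinib, where they were also 45 as a mean of single-cell CPM, 41 thinned and 25 without mature-cell clusters. The share of cells with an inducible UMI was 69.8% at 500 UMIs, 89.2% at 2000 UMIs, 70.6% for Hspa1a and Hspa1b and 44.6% for Dnajb1 and Hsph1 in CML untreated, and 21.8%, 47.5%, 14.6% and 23.2% in WT untreated. At Leiden resolution 1.0, the inducible sum was 2-fold higher in 20% of clusters in WT imatinib over WT untreated and in 0% in CML imatinib over WT imatinib, where 1 of 9 clusters was 2-fold lower. The median over clusters in WT imatinib over WT untreated was then -0.01, against 0.73, and the lowest -0.83, so its direction within clusters depends on the clustering. The cause of these changes was not tested. Over bands of like depth, the Hspa1a plus Hspa1b difference in CML untreated over WT untreated ran from 6.29-fold to 19.6-fold. The part of depth in this was not tested.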
